A study of Mus musculus with 8 samples.

Results

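Zglp1, the 6 GATA factor genes Gata1 to Gata6 and the FOG genes Zfpm1 and Zfpm2 were examined as possible binding places of ZGLP1 itself. They were taken by symbol, 9 genes of the 21900 protein-coding genes in the RefSeq annotation of the mouse genome build GRCm38 (mm10), and each was searched for peak summits inside it and within 10 kb and 50 kb of its start or end. Of the 32927 summits of the series, 22 lay inside these genes, 28 lay inside or within 10 kb, and 48 lay inside or within 50 kb.

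GATA factors are transcription factors with zinc fingers that recognise DNA around the letters GATA, and they direct lineage choices in blood, heart, endoderm and gonads. FOG proteins (friend of GATA) do not need to touch DNA: they bind a GATA zinc finger and bring in corepressor complexes such as NuRD and CtBP. ZGLP1 carries GATA-like zinc fingers and is known from the gonad, and the study's title connects it with the oogenic fate.

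Cells of a C57BL/6 x DBA2 background overexpressed V5-tagged Zglp1 under doxycycline (Dox), and chromatin was precipitated with an antibody against V5. The ChIP libraries came from primordial germ cell-like cells (PGCLCs), a culture model of early germ cells derived from embryonic stem cells (ESCs), on culture day 7 with Dox only, day 8 with Dox only, day 7 with Dox and retinoic acid (RA) and day 8 with Dox and RA, and from ESCs with Dox and RA for 24 h. PGCLCs were treated from day 3 and sorted as positive for the SC reporter and mCherry, and ESCs as positive for mCherry. Input chromatin was sequenced for day 8 Dox only, day 8 Dox and RA, and ESCs, which gives 5 ChIP and 3 input libraries with 1 library per group, and all 8 carry the transgene by their titles. The promoter behind the transgene and the number of clones are not given in the sources used here, and a precipitation from cells without the tag was not analysed here.

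The deposited values are 1 list of summit positions that names no library and holds no height. The values below therefore say where a summit was listed, not in which cells or how strong it was, so no comparison between treatments, days or cell types was made and no replicate error can be given. Where a gene has no listed summit, binding may be lacking or may have missed the peak caller's threshold, and the depth behind the list is unknown.

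Summits were unevenly spread over the 9 genes. Zfpm1 had 8 summits inside or within 10 kb, Gata2 had 7, Zglp1 had 4, Gata6 and Zfpm2 had 3 each, Gata3, Gata4 and Gata5 had 1 each, and Gata1 had 0. Zfpm1 and Gata2 together held 15 of the 28 summits (53.6%). The GATA genes held 13 and the FOG genes 11.

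A summit inside the gene was listed for 8 of the 9 genes, and over all protein-coding genes the share was 54.5%. Inside or within 10 kb the count was also 8 of 9, beside 68.4% of all protein-coding genes. It was 7 of 9 when a summit had to lie within 10 kb of an end, beside 66.6%, because the summit of Gata4 lies deeper in the gene. Within 1 kb of an end it was 6 of 9, beside 52.9%. Within 50 kb it was 9 of 9, beside 78.3%. With 9 genes these shares describe the set and were not tested, and many genes of the genome have a summit at these distances.

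**Figure D1:**
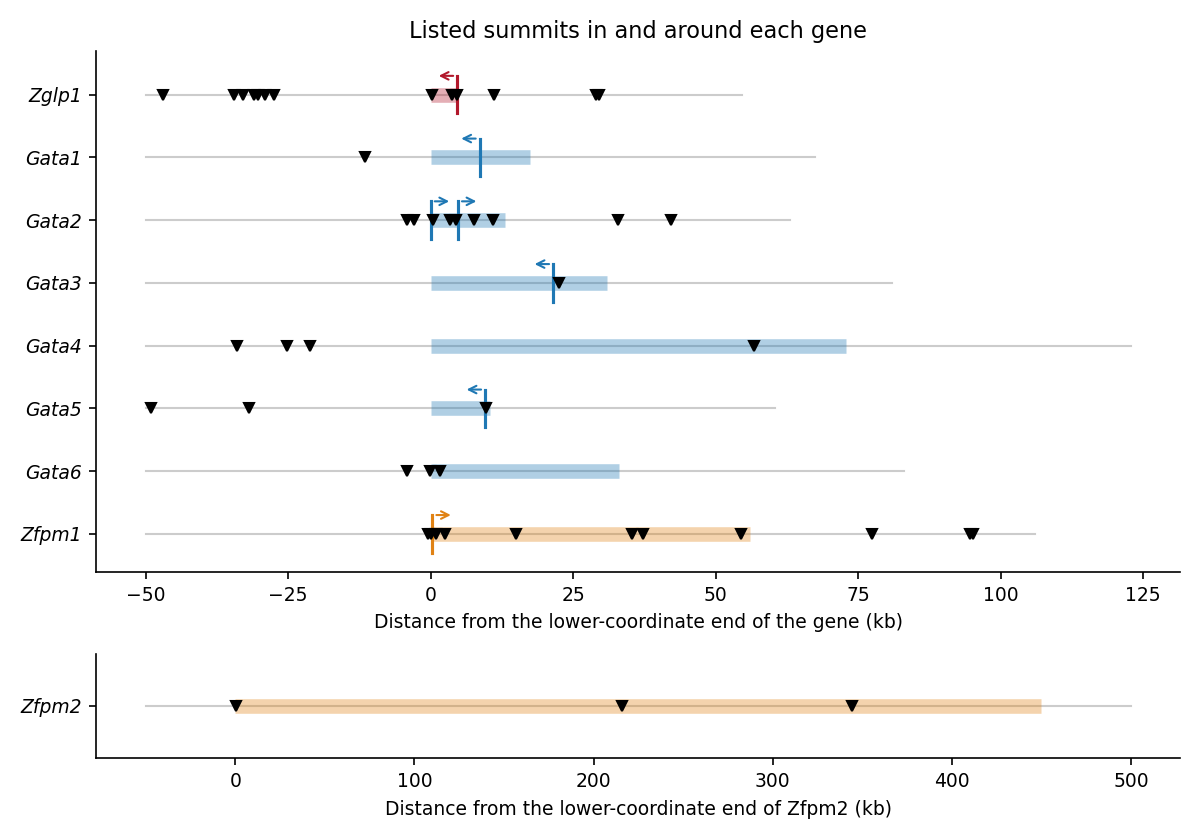
Position of every listed summit (black triangles) inside and within 50 kb of each gene, in kb from the end of the gene with the lower coordinate. Thick bars are the annotated genes, and vertical lines with arrows are the tabled starts and direction of transcription, shown for the 6 genes with a promoter entry. Zfpm2 has its own axis. Summits cluster at Gata2 and at the lower end of Zfpm1, while Gata1 has none on its bar.

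Zglp1 (gene ID 100009600, chr9:21062393-21067093, reverse strand) encodes the factor that was tagged. Inside its 4.7 kb lay 3 summits, at 88, 891 and 4440 bases downstream of its start. Among 4754 protein-coding genes of similar length, 0.5 to 2 times that of Zglp1, 3.53% had at least 3 summits inside. At least 4 inside or within 10 kb, the count of Zglp1, were found in 17.6% of these genes. The summit 88 bases from the start lay at the promoter, and the one at 4440 bases lay 260 bases from the other end of the gene. Reads from the introduced V5-tagged sequence could map to these places where it shares sequence with the gene, and their part in these summits was not tested.

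The fourth summit within 10 kb of Zglp1 lay 6357 bases upstream of its start. It was 81 bases downstream of the start of Fdx2, the ferredoxin gene next to Zglp1, and closer to that gene than to Zglp1. Between 10 and 50 kb, another 9 summits were listed around Zglp1. Of these, 7 were nearest to the cell adhesion genes Icam1, Icam4 and Icam5, among them a summit 4 bases before the start of Icam5. The remaining pair lay at Raver1, which encodes an RNA-binding protein, 609 bases downstream and 17 bases upstream of its start. All 9 were closer to another gene than to Zglp1.

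Gata2 (gene ID 14461, chr6:88193891-88207032, forward strand) encodes the GATA factor of blood stem and progenitor cells, and its gene has more than 1 start. Of its 7 summits, 5 lay inside the gene, at 504, 3408, 4528, 7704 and 10897 bases after the lower start. The other pair lay upstream, at 2981 and 4091 bases before that start. The run covered 14988 bases with a median gap of 3040 bases, while the median gap between neighbouring summits of the whole list was 16429 bases. The Gata2 gaps were taken only within its 10 kb window, so their short median follows largely from the count of 7. At least 5 summits inside were found in 0.787% of 7500 protein-coding genes of similar length, and at least 7 inside or within 10 kb in 3.09%.

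The Gata2 summits were not gathered at a single start. The lower start had its closest summit 504 bases downstream, and the upper start, at 88198664, had one 245 bases upstream. The noncoding gene Gm38708 runs on the opposite strand through this region and has a start 135 bases from the latter summit, so that summit lies between starts that point away from each other. The summit at 3408 bases lay 84 bases after another start of Gm38708. Of the 7 summits, 6 were over 1 kb from every end of a protein-coding gene. Outside the 10 kb window 2 more were listed, 19817 and 29010 bases beyond the far end of Gata2, both closer to Dnajb8.

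Gata1 (gene ID 14460, chrX:7959260-7976663, reverse strand), the erythroid and megakaryocyte factor, had no summit inside or within 10 kb. The closest lay 11465 bases from the gene, at 94 bases downstream of the start of Hdac6, which encodes a deacetylase. It was the lone summit within 50 kb. Among genes of similar length 74.4% had a summit inside or within 10 kb. On the X chromosome the share was lower, at 30.3% of 966 protein-coding genes, so the absence at Gata1 is shared by most X-linked genes.

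Gata3 (gene ID 14462, chr2:9857078-9887953, reverse strand), known from T helper cells and trophoblast, had 1 summit in its whole 50 kb surroundings. It lay 978 bases upstream of the tabled start, at 9878600, within the longer annotated span of the gene. It was 8375 bases from the nearer end of that span. A distance from the gene's ends therefore hides that this summit sits near a start. Of 7558 protein-coding genes of similar length, 76.6% had at least 1 summit inside or within 10 kb.

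Gata4 (gene ID 14463, chr14:63198914-63271712), a factor of heart and gonadal somatic cells, had 1 summit inside, 16010 bases from its upper end. No summit was listed within 10 kb of either end. Another 3 lay 21079, 25166 and 33963 bases below the gene, all inside Fdft1, which encodes squalene synthase. Of 4958 protein-coding genes of similar length, 82.0% had at least 1 summit inside or within 10 kb.

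Gata5 (gene ID 14464, chr2:180325088-180335503, reverse strand), a factor of heart and gut, had 1 summit inside, 178 bases upstream of its start at 180334679. This summit also lay in the span of Gata5os, a noncoding gene that overlaps Gata5. Within 50 kb another 2 were listed, 31920 and 49120 bases below the gene, at the noncoding gene Gm29943 and at Rbbp8nl. Of 6903 protein-coding genes similar in length to Gata5, 72.5% had at least 1 summit inside or within 10 kb.

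Gata6 (gene ID 14465, chr18:11052510-11085636), a factor of primitive endoderm, had 3 summits, all at its lower end. They lay 4162 and 151 bases outside that end and 1640 bases inside the gene. The outer pair fell in the span of Gata6os, a noncoding gene that overlaps the lower end of Gata6. Between 10 and 50 kb from Gata6 none was listed. At least 3 summits inside or within 10 kb were found in 31.2% of genes of similar length, so this number was a common one.

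Zfpm1 (gene ID 22761, chr8:122281856-122337862, forward strand) encodes FOG1, the partner of GATA1 in red cell and platelet precursors. It had the most listed summits of the 9 genes, with 7 inside and 1 at 407 bases outside its lower end. With summits merged within 1 kb it had 6, fewer than the 7 of Gata2. Around the tabled start of Zfpm1, at 122282141, summits lay 692 and 209 bases upstream and 731 and 2300 bases downstream. These formed a group of 4 within 2992 bases. The other 4 were spread through the gene at 14699, 35103, 37067 and 54174 bases after the start, the last 1547 bases from the far end. At least 7 summits inside were found in 1.52% of 5837 genes of similar length, and at least 8 inside or within 10 kb in 2.55%.

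As at Gata2, a noncoding gene on the opposite strand begins beside the start of Zfpm1. The summit 692 bases upstream of Zfpm1 lay 268 bases downstream of a start of Gm39269. The summit 2300 bases downstream of Zfpm1 lay 733 bases after another start of Gm39269. Beyond the far end, 3 summits between 10 and 50 kb lay at Trhr2, Zc3h18 and Gm39270, each closer to those genes.

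Zfpm2 (gene ID 22762, chr15:40655042-41104592) encodes FOG2, the partner of GATA4 in heart and gonad. Its 3 summits all lay inside, and the gene is long, with 449551 bases. One was 722 bases from the lower end, and the others were 215958 and 344310 bases from that end. Per 10 kb of gene it had 0.0667 summits, while Zfpm1 had 1.25, Gata2 had 3.8 and Zglp1 had 6.38. These densities are not at equal length, as Zfpm1 has 56.0 kb, Gata2 13.1 kb and Zglp1 4.7 kb. Among 764 genes similar in length to Zfpm2, 36.5% had at least 3 inside. Zfpm1 and Zfpm2 thus differed in number and in density, although both had a summit within 1 kb of the lower end.

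**Figure D2:**
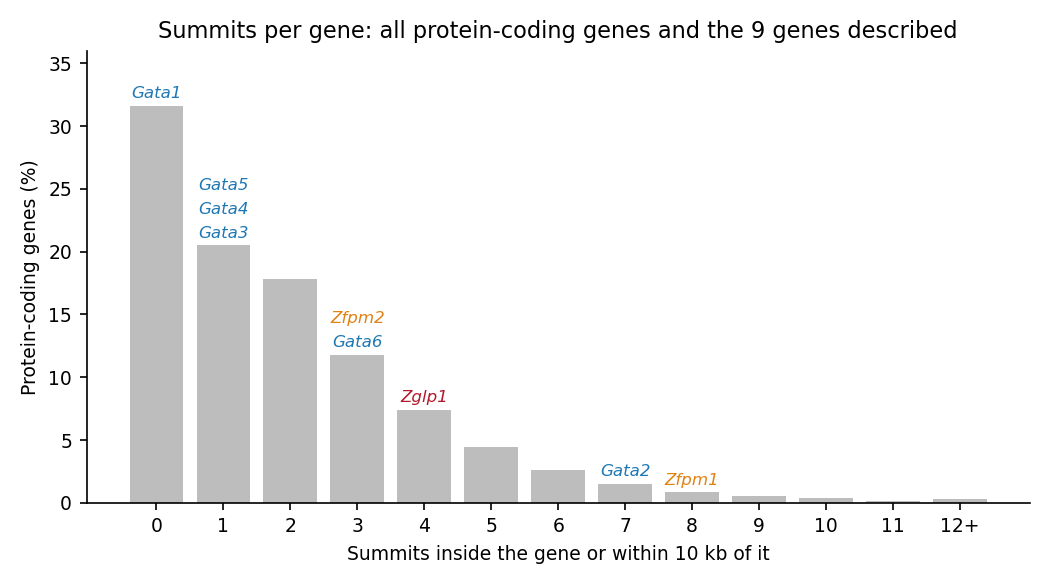
Percent of the 21900 protein-coding genes (bars) with each number of summits inside or within 10 kb, with the 9 genes written over the bar they fall in. Gata1 falls in the class with 0 summits (31.6% of genes), Gata3, Gata4 and Gata5 in that with 1 (20.5%), and Gata2 and Zfpm1 in the sparse classes with 7 (1.52%) and 8 (0.831%).

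Over all 9 genes, summits near a gene mostly had its end as the nearest protein-coding one, and distant ones did not. Of the 28 inside or within 10 kb, 27 had the gene itself as the nearest protein-coding gene end, the exception being the one at Fdx2. As 22 of the 28 lay inside the gene, this count is largely set by the window, and no share over all genes was computed. Of the 20 between 10 and 50 kb, all 20 were nearer to another protein-coding gene, 11 of them within 1 kb of that gene's end.

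**Figure D3:**
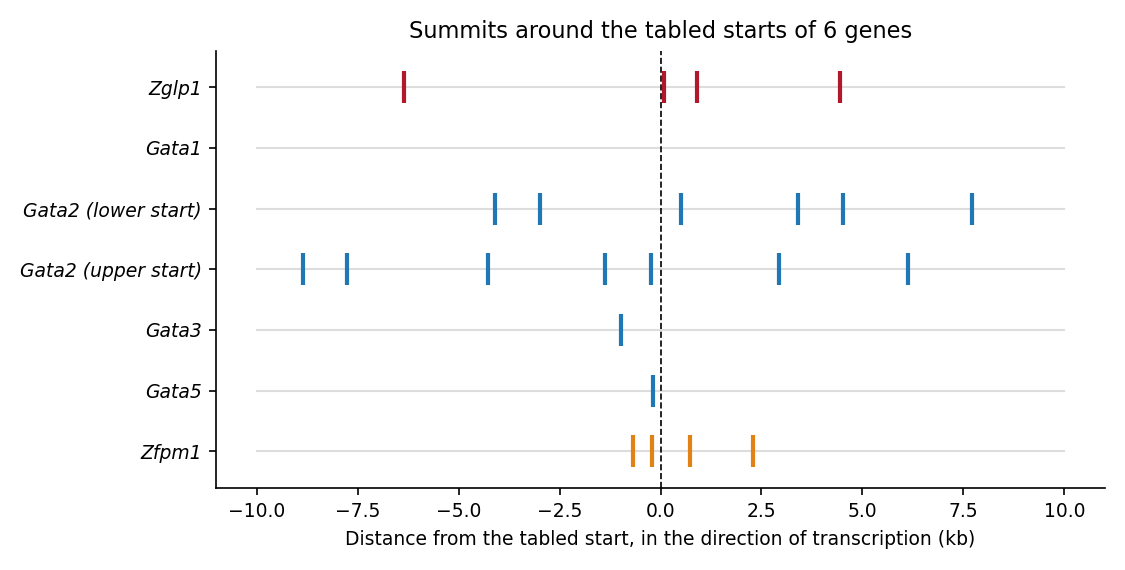
Summits (vertical ticks) within 10 kb of each tabled start, in kb along the direction of transcription, for Zglp1, Gata1, Gata2 (both tabled starts), Gata3, Gata5 and Zfpm1. The dashed line is the start. The closest ticks lie at 88 bases for Zglp1, 178 for Gata5, 209 for Zfpm1, 245 for the upper start of Gata2 and 978 for Gata3, and the row of Gata1 is empty.

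Promoter sequence from RefSeq (GRCm38.p6) was matched for 6 of the 9 genes, Zglp1, Gata1, Gata2, Gata3, Gata5 and Zfpm1, as 7 windows since Gata2 has 2. Gata4, Gata6 and Zfpm2 were not matched. In each window the 250 bases before the start were read. A summit fell in 3 of the 7 windows, beside 14.3% of all 32851 windows. The 3 were the upper one of Gata2 and those of Gata5 and Zfpm1. These are printed in the direction of transcription, with the bases up to 10 on each side of the summit in capitals, 16 for Gata2, whose summit lies at the edge, and 21 for the others. They are shown because they are where a listed summit and a GATA or FOG gene promoter coincide. Gata2 is chr6:88198414-88198663 on the forward strand, Gata5 is chr2:180334680-180334929 on the reverse strand and Zfpm1 is chr8:122281891-122282140 on the forward strand.
Gata2: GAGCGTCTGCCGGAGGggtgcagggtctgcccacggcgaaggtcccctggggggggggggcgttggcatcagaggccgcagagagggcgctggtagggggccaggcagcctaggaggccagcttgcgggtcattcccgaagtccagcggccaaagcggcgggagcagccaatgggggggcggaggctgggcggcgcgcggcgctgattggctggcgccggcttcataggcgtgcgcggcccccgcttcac
Gata5: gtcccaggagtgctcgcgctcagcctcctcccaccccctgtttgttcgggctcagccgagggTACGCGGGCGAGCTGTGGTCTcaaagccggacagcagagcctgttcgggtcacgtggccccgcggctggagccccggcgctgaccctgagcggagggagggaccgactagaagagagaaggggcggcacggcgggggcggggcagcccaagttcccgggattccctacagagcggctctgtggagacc
Zfpm1: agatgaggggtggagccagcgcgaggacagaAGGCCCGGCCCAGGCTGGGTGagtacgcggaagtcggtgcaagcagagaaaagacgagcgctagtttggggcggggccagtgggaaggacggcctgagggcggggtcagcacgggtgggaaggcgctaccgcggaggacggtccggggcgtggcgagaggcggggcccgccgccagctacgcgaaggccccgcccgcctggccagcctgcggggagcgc

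All 3 were rich in G and C, at 74.0% for Gata2, 70.0% for Gata5 and 73.2% for Zfpm1, and held 24, 22 and 28 CpG pairs. Over all 32851 promoter windows of the table, those with a summit had a median GC content of 63.6% and 20 CpG pairs, and those without had 50.4% and 4. The 3 windows were thus on the GC-rich side of windows with a summit. The window of Gata3, with no summit in it, also reached 70.0%, and the lower window of Gata2, likewise without, reached 67.2%. Their starts had a summit outside these windows, 978 bases upstream for Gata3 and 504 bases downstream for Gata2. The part of GC content was not tested.

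**Figure D4:**
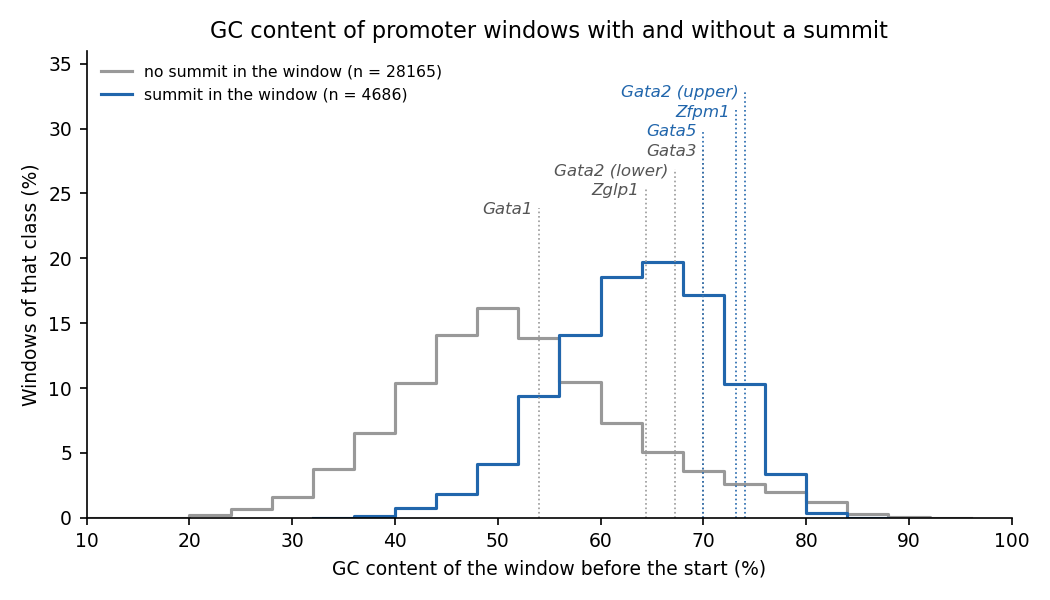
Distribution of GC content (percent) over windows of 250 bases before the start, as the percent of windows in bins of 4 percentage points, for the 4686 windows with a summit (blue) and the 28165 without (grey). Dotted lines mark the 7 windows of Zglp1, Gata1, Gata2, Gata3, Gata5 and Zfpm1, blue where a summit lies in the window. The blue lines lie at 70.0% to 74.0%, and Gata1, at 54.0%, is the lowest of the 7.

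The letters GATA, the core that GATA fingers recognise, were searched on both strands of these windows, where TATC is the same core on the opposite strand. None of the 3 windows with a summit held it. All 3 lie in the class at 70% GC and above, where 13.6% of windows with a summit held it. The Gata2 summit lies at the edge of its window, and bases beyond the windows were not searched. The core was found in 2 of the 7 windows, both without a summit inside, beside 53.6% of all windows. That share is not at equal GC content. The 7 windows had at least 54.0% GC, while the median over all windows was 52.4%. Zglp1 held GATA starting 236 bases and TATC starting 50 bases before its start, and Gata1 held GATA 132 bases before its start. Both are printed below in the direction of transcription with these letters in capitals, because they are the windows of this set in which the core occurs. Zglp1 is chr9:21067094-21067343 and Gata1 is chrX:7967911-7968160, both on the reverse strand. The Zglp1 summit closest to its start lay beyond this window, 88 bases into the gene.
Zglp1: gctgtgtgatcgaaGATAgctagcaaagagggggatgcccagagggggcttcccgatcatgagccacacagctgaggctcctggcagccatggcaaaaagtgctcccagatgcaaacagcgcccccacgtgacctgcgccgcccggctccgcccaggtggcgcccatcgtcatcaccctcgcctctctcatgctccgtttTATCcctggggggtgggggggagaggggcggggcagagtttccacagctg
Gata1: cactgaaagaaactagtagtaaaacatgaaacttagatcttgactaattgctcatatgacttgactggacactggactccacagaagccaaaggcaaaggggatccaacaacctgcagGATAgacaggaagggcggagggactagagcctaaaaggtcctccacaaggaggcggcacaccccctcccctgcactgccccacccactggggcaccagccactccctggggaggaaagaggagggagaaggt

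Such a match is a description and not a binding site, and short letters occur often. GATA was present in 53.6% of all windows, in 33.6% of those with a summit and in 56.9% of those without. GC content moved with these shares. Below 50% GC the letters were in 61.0% of windows with a summit and 74.4% of those without, and at 50 to 60% GC in 46.4% and 52.5%. At 60 to 70% GC they were in 32.0% and 32.1%, and at 70% GC and above in 13.6% and 11.1%. The share was thus lower with a summit in the classes under 60% GC and not in those above, and the part of GC content in the difference over all windows was not tested. The longer GATAA, which lies within some GATA matches, was in 22.6% of all windows and in 1 of the 7, that of Zglp1. AGATAA or TGATAA, which both contain GATAA, was in 16.6% of all windows and in 0 of the 7. These shares of all windows are not at the GC content of the 7.

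The proteins that work with GATA and FOG factors were followed in 4 lists. Of the 37 genes in them, 33 had a summit inside or within 10 kb, beside the 68.4% of all protein-coding genes given above. Here and in each list, the shares over all protein-coding genes are not matched for gene length. The median number of summits inside or within 10 kb was 3 for Zglp1 and the GATA and FOG genes together, and 1 over all protein-coding genes. The median distance from a gene end to its closest summit was 646 bases for the 9 genes and 657.5 bases over all protein-coding genes.

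Corepressors bound by FOG proteins, the NuRD subunits Chd3, Chd4, Hdac1, Hdac2, Mbd2, Mbd3, Rbbp4, Rbbp7, Mta1, Mta2, Mta3, Gatad2a and Gatad2b together with Ctbp1 and Ctbp2, had a summit inside in 15 of 15 cases, beside 54.5% of all protein-coding genes. Within 1 kb of an end the count was 13 of 15, beside 52.9%. Their median was 4 summits inside or within 10 kb. The closest were those of Mta2 at 14 bases from an end and of the methyl-CpG-binding gene Mbd2 at 19 bases. The farthest were those of Mta1 at 2935 bases and of the remodeller gene Chd3 at 1255 bases. X-linked Rbbp7, chosen after its values were seen, had a summit 55 bases from an end, unlike Gata1 on the same chromosome. Gatad2a, chosen in the same way, had 14 summits inside or within 10 kb, more than any of the 9 genes. Of these, 8 lay inside its 89.3 kb, and whether the rest lie nearer to other genes was not examined.

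The list of other genes with a GATA-type zinc finger was kept to Trps1, Gatad1 and Rere and is not the whole class. The corepressor gene Rere had 10 summits inside or within 10 kb, the closest 36 bases from an end, in a gene of 340.0 kb. Trps1, which encodes a repressor, had 3, the closest at 460 bases. Gatad1 had 0, and its closest lay 43265 bases away.

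Partners of GATA1 and GATA2 in blood were Tal1, Lyl1, Lmo2, Ldb1, Tcf3, Spi1, Runx1, Klf1 and Fli1. A summit inside or within 10 kb was listed for 8 of 9, beside 68.4% of all protein-coding genes, with a median of 3 summits. Within 1 kb of an end the count was 4 of 9, not above the 52.9% of all protein-coding genes. The closest were those of Fli1, an ETS factor gene, at 30 bases and of Tcf3, which encodes the partner of TAL1, at 60 bases. Tal1 had none within 50 kb, its closest lying 56216 bases away. Lmo2, which encodes the bridging protein of the complex, had 2 inside, and the summit closest to either of its ends lay 11454 bases from it.

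Partners of GATA4 and GATA6 in heart, endoderm and gonad were Nkx2-5, Tbx5, Tbx20, Mef2c, Hand2, Nr2f2, Sox17, Foxa2, Nr5a1 and Wt1. A summit inside or within 10 kb was listed for 8 of 10, beside 68.4% of all protein-coding genes, with a median of 2 summits. Within 1 kb of an end the count was 3 of 10, below the 52.9% of all protein-coding genes. The closest were those of the T-box gene Tbx20 at 60 bases and of Wt1, a regulator of gonad and kidney, at 248 bases. Mef2c, of the cardiac muscle programme, had none within 50 kb, its closest lying 53972 bases away. Foxa2, of the definitive endoderm, had its closest 360885 bases away.

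**Figure D5:**
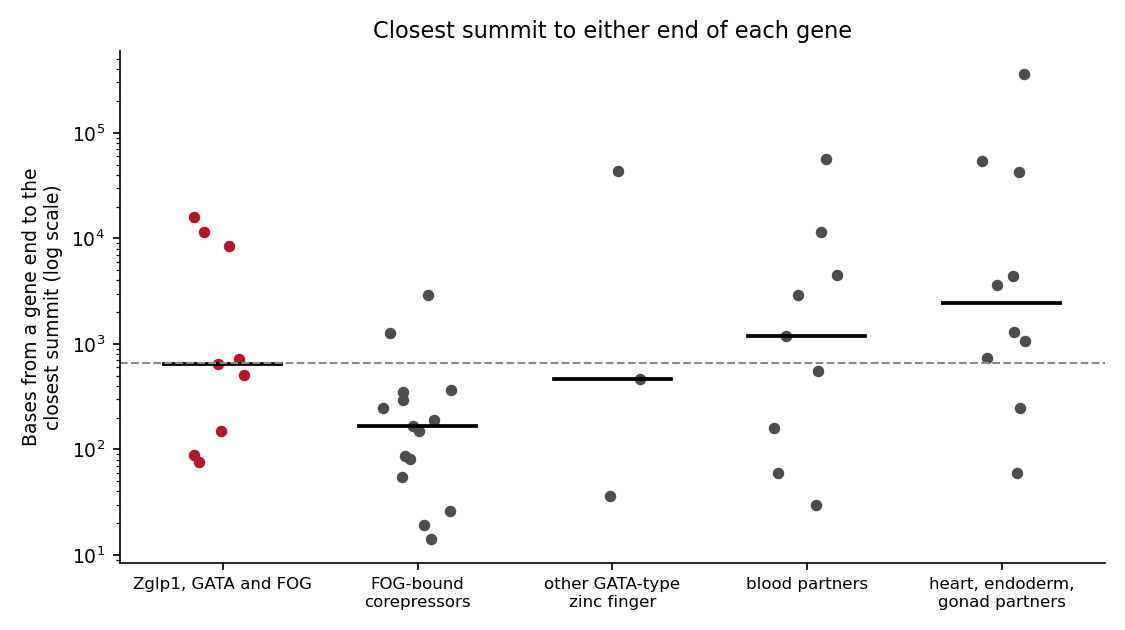
Bases from either end of a gene to its closest summit, on a log axis, for the 9 genes (red) and the genes of the 4 partner lists (grey), with 1 point per gene and black bars for the list medians. The dashed line is the median of all protein-coding genes, 657.5 bases. The corepressor points lie lowest, with a median of 168 bases, and the heart, endoderm and gonad partners highest, with 2449 bases.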

How the data were processed

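Per the labels, anti-V5 ChIP from equal numbers of cells was sequenced for 5 libraries, with 3 inputs. MACS2 2.1.1.20160309, HOMER 4.9.1, Bowtie 1.1.2, bedtools, SAMtools 1.3, cutadapt 1.9.1, Trim Galore 0.4.1, Picard 2.1.0 and mm10 are named, without roles, per the submitters' processing notes. The authors deposited summit positions in bases, with no other value such as a score or height. The libraries behind the list, the way peaks were joined and the threshold are not given in the sources used here. Each summit has an identical start and end, so a distance may be off by 1 base.

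Summits were set against a RefSeq gene table for GRCm38 (21900 protein-coding genes). A window of 10 or 50 kb includes the gene itself. Starts and strands came from a RefSeq promoter table. Distances and counts were checked against a direct calculation on simulated data. No test between groups was possible, so all shares are descriptions. The planned protein comparison was not run, as protein sequences were not used here.

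The genes and lists were chosen with earlier results of these data known. All 9 genes are described. Of each partner list the 2 genes with the closest and the 2 with the farthest closest summit are named, and a neighbouring gene where it lies nearer to a summit. Alternatives covered other windows, merged summits, nearest genes, starts alone, summits over 1 kb from every protein-coding gene end, and longer motifs. Python 3.11.15, numpy 2.4.6, pandas 2.3.3 and matplotlib 3.10.9 were used.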

Additional observations from a re-analysis of the deposited data

How the results depend on the processing

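Of 71 alternative values, 64 stayed within 1.5 times the reported count. Of the 71, 45 were counts for single genes, several of them 0 or 1, so this tally is a weak check. A fall of partner genes with a summit from 33 to 22, at 1 kb in place of 10 kb, was among the 64. Distance from the start alone, known for 6 genes, gave 5 genes with a summit within 10 kb in place of 8 of 9. With only summits over 1 kb from every protein-coding gene end, 18 summits lay inside or within 10 kb of the 9 genes in place of 28. In that setting Zglp1 and Gata5 each had 0, in place of 4 and 1, while Gata2 had 6 and Zfpm1 6. It keeps summits near a start that is not a gene end, such as the one 245 bases before the upper start of Gata2. Merging within 1 kb left 25 of the 28. Zfpm1 then had 6 in place of 8 and Zglp1 3 in place of 4, while Gata2 kept 7. With 20 kb in place of 10 kb, Gata1 had 1. GATAA was in 1 promoter window and AGATAA or TGATAA in 0, in place of 2 for GATA, since the longer strings are rarer by construction. Counting by distance from an end, without counting the inside on its own, was chosen after seeing the data and gave 7 genes within 10 kb and 9 within 50 kb. Stricter peak thresholds were not run, because the list has no score, and the whole protein and finger comparisons were not run either. No paired analysis was possible because there are no replicates and no library is named in the list. Since depth is unknown, a gene without a summit cannot be called unbound.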
